A study of Mus musculus with 36 samples.

Results

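The comparison set plasma cells of mice with both the MMSET and the Ikk2ca transgene (MMSET-Ikk2ca, 6 libraries) against control plasma cells of the same cohort (Control(M), 4 libraries), and it covered every gene in the annotation. The members were taken by their genotype label, and they make up 10 of the 36 libraries of a series on mouse models of multiple myeloma, the cancer of plasma cells. All mice had the C57/BL6 background. Each library was made from 2000 sorted bone marrow cells that carried the surface proteins CD138 and TACI, and the design names a reporter as a further gate for all groups, the controls included. The same cohort held 4 libraries with MMSET alone and 4 with Ikk2ca alone (Ikk2ca(M)), and a second cohort held Ccnd1-Ikk2ca (6 libraries) and its control, Control(D) (4 libraries). The promoter or Cre line that drives the transgenes, the age of the mice and the alleles that the controls carry are not given in the sources used here. The labels do not state whether each library is a separate animal, and the p-values therefore measure the spread between these samples alone, part of which may be technical.

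Plasma cells secrete antibody and are the last stage of B cell differentiation, and on reaching it they shut down genes of mature B cells such as those for MHC class II and the B cell receptor. MMSET, also called NSD2, is a histone methyltransferase that dimethylates lysine 36 of histone H3, and in a subgroup of human myeloma a translocation to the immunoglobulin heavy chain locus raises its expression. IKK2 is the kinase that marks the IkB inhibitors for degradation and so releases NF-kB, a pathway that myeloma cells often activate by mutation, and Ikk2ca is commonly its constitutively active form.

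The MMSET-Ikk2ca libraries held 57.1 to 66.3 M estimated reads, and the Control(M) libraries held 60.0 to 72.1 M. Levels are given in CPM, the read count of a gene relative to the total of its library after scaling between libraries. Of the defining plasma cell markers, Sdc1, which encodes CD138, lay between 295 and 461 CPM in MMSET-Ikk2ca (median 392), against 442, 429, 308 and 475 CPM in Control(M). Tnfrsf13b, which encodes TACI, lay between 155 and 221 CPM in MMSET-Ikk2ca (median 197), against 223, 313, 252 and 319 CPM in Control(M). Neither passed the test (adjusted p = 0.802 for Sdc1 and 0.0555 for Tnfrsf13b), and all TACI values of MMSET-Ikk2ca lay below the controls. For Tnfrsf13b this depended on the setting, and DESeq2 called it lower (log2 fold change -0.55, adjusted p = 0.0129), as did edgeR without MMSET-Ikk2ca 4 (adjusted p = 0.0476). The transcription factor genes Prdm1 and Irf4 did not pass the test either, and all 4 markers were present in every library. Xbp1, which drives the secretory program, lay between 1464 and 2409.6 CPM in MMSET-Ikk2ca (median 1576), against 2328, 3515, 2431 and 3242 CPM in Control(M), and the groups overlapped at the edge (log2 fold change -0.73, SE 0.193, adjusted p = 0.0275). The Xbp1 call was lost without any 1 of 6 libraries (adjusted p = 0.0556 to 0.0981, highest without Control(M) 2). The fourth MMSET-Ikk2ca library stood apart from the other 5. Its median rank correlation with them across genes was 0.847, against 0.874 to 0.902 for the others, while its correlation with Control(M) was 0.805 and that of MMSET-Ikk2ca 5 was 0.803, against 0.763 to 0.770 for the others. Where this library decides a result, the value without it is given beside that result. The loss of a call is given below mainly for libraries left out. A call without such a statement was not always kept under the other methods and settings.

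Expression differed in both directions and often by a large factor. Of 15416 genes tested, 1065 were called, meaning an edgeR quasi-likelihood test with a Benjamini-Hochberg adjusted p below 0.05, which is 6.91% of all tested genes. Of these 539 were higher in MMSET-Ikk2ca (3.5%) and 526 were lower (3.41%), and 39 of the lower genes were immunoglobulin genes. The called genes that were higher had a median log2 fold change of 1.5 and those that were lower a median of -2.18, against a median of 0.01 over all tested genes. In 407 of the 539 higher genes every MMSET-Ikk2ca library lay above every Control(M) library, and in 397 of the 526 lower genes every one lay below, whereas 4.76% and 4.54% of all tested genes separated in those directions. At an average of at least 3 on the log2 CPM scale, the calls comprised 383 higher and 303 lower genes. Without Control(M) 3 the count was 689, and without MMSET-Ikk2ca 4 it was 1223.

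**Figure D1:**
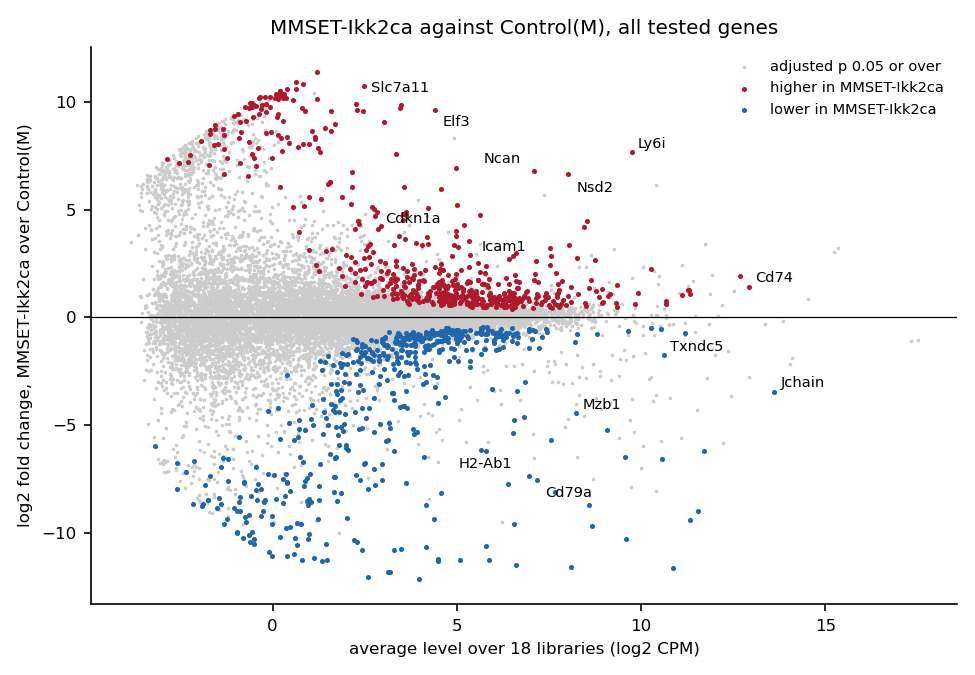
Log2 fold change of MMSET-Ikk2ca over Control(M) (vertical axis) against average level over the 18 libraries of the cohort in log2 CPM (horizontal axis), 1 point per tested gene. The 539 red genes were called higher and the 526 blue genes lower in MMSET-Ikk2ca, and the fans at the left are genes close to 0 in 1 of the groups.

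The 12 largest rises were ranked by log2 fold change among calls whose average log2 CPM over the 18 libraries of the cohort reached 3. The genes given here were at low levels in control plasma cells, which a ranking by fold change favours. A gene near 0 in the controls passes that filter through the groups where it is high. Slc7a11, the cystine importer that feeds glutathione synthesis, lay between 11.1 and 40.2 CPM in MMSET-Ikk2ca (median 23.5), against 0.0159, 0.0164, 0.0499 and 0.0164 CPM in Control(M) (log2 fold change 9.86, SE 0.758, adjusted p = 5.71e-07). Elf3, an epithelial transcription factor, lay between 9.89 and 87.7 CPM in MMSET-Ikk2ca (median 52.4), against 0.0955, 0.115, 0.0166 and 0.0327 CPM in Control(M) (log2 fold change 9.64, SE 0.915, adjusted p = 1.01e-05). In both genes the lowest MMSET-Ikk2ca library lay far above the highest control. Ncan, which encodes the brain matrix proteoglycan neurocan, lay between 183 and 353 CPM in MMSET-Ikk2ca (median 285), against 3.04, 4.54, 1.58 and 0.932 CPM in Control(M) (log2 fold change 6.78, SE 0.742, adjusted p = 8.00e-05). Ly6i, of the Ly6 family of small surface proteins, lay between 159 and 5255 CPM in MMSET-Ikk2ca (median 2673), against 16.8, 13.7, 8.92 and 9.91 CPM in Control(M) (log2 fold change 7.66, SE 0.969, adjusted p = 3.31e-04). The spread of Ly6i among the MMSET-Ikk2ca libraries was wide, but none reached down to the controls, and reads of this family may be split between near-identical copies. Fgf21, a hormone gene induced by metabolic stress, lay between 19.3 and 163 CPM in MMSET-Ikk2ca (median 56.8), against 1.32, 2.64, 0.366 and 3.3 CPM in Control(M) (log2 fold change 5.23, SE 1.07, adjusted p = 0.00923). The Fgf21 call was lost with limma voom and with the replicate number as a block (adjusted p up to 0.117). Tgm2, a protein crosslinking enzyme, lay between 9.28 and 30.9 CPM in MMSET-Ikk2ca (median 20), against 0.366, 0.0328, 0.699 and 0.0327 CPM in Control(M) (log2 fold change 6.04, adjusted p = 0.0025). The X-linked homeobox gene Rhox4b, 1 of several near-identical copies, rose by 6.91 on the log2 scale, and the Golgi-associated gene Fam174b rose by 7.58 (adjusted p = 0.00189 and 0.00181). Tex101, a germ cell surface protein, differed most among libraries, between 0.494 and 83.6 CPM in MMSET-Ikk2ca (median 22.8), against 0.0318, 0.0492, 0.0166 and 0.0491 CPM in Control(M) (log2 fold change 9.70, SE 2.19, adjusted p = 0.0161). Its call was lost without Control(M) 1 (adjusted p = 0.0533) or Control(M) 3 (adjusted p = 0.0556).

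Among calls whose average log2 CPM over the 18 libraries of the cohort reached 3, the 12 largest falls included genes of B cells and of granulocytes. Btla, an inhibitory lymphocyte receptor, had 2 reads in all over the 6 MMSET-Ikk2ca libraries and 16, 19.2, 39.9 and 19.2 CPM in Control(M), 5201-fold lower by read counts (95% counting interval 1439 to 42957). These intervals treat the pooled reads as independent counts and leave out the spread between libraries. No molecular identifiers are described, so PCR copies remain in the counts and the intervals are too narrow. Cd79a, the signalling chain of the B cell receptor, lay between 0.382 and 4.66 CPM in MMSET-Ikk2ca (median 1.63), against 398, 359, 343 and 335 CPM in Control(M) (log2 fold change -7.55, SE 0.71, adjusted p = 1.83e-05). The groups did not overlap in either gene. Ptprcap, which binds the phosphatase CD45, lay between 0.099 and 1.66 CPM in MMSET-Ikk2ca (median 0.954), against 47.1, 25.3, 51.1 and 31.3 CPM in Control(M) (log2 fold change -5.42, SE 0.776, adjusted p = 5.90e-04). Gimap3, a GTPase of lymphocytes, lay between 0 and 1.29 CPM in MMSET-Ikk2ca (median 0.296), against 15.1, 3.41, 54 and 18.2 CPM in Control(M) (log2 fold change -5.72, adjusted p = 0.00823). The granulocyte genes Chil3 and Camp were also among the 12 largest falls, and Chil3 had 6 reads in all in MMSET-Ikk2ca, against 10.9, 11.9, 5.01 and 13.2 CPM in Control(M) (log2 fold change -9.35, SE 1.77, adjusted p = 0.00567). The Chil3 call was lost with limma voom and with the replicate number as a block (adjusted p up to 0.128). Camp, an antimicrobial peptide of neutrophils, had 67 reads in all in MMSET-Ikk2ca, against 15.2, 18.6, 11.7 and 11.1 CPM in Control(M) (log2 fold change -6.46, adjusted p = 0.0217). The Camp call was lost without MMSET-Ikk2ca 2 (adjusted p = 0.0504) or MMSET-Ikk2ca 6 (adjusted p = 0.0505). The average level used for this ranking includes the groups with 1 transgene. There the summed neutrophil markers ranged over 52.1 to 3037 CPM in MMSET and 6.96 to 497 CPM in Ikk2ca(M). In sorted bulk RNA, fewer cells of a type and less RNA per cell cannot be told apart.

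Both targeted genes were higher in every MMSET-Ikk2ca library than in every control. Nsd2, the mouse gene for MMSET (chromosome 5, 33820725 to 33897975, GRCm38), lay between 178 and 617 CPM in MMSET-Ikk2ca (median 299.5), against 2.88, 4.3, 4.53 and 1.93 CPM in Control(M) (log2 fold change 6.66, SE 0.488, adjusted p = 5.71e-07). The most abundant of its 15 annotated transcripts (4633 bases) held 73.7% to 80.4% of its reads in MMSET-Ikk2ca and 17.6% to 92.8% in Control(M). Ikbkb, the gene for IKK2 (chromosome 8, 22659212 to 22706589), lay between 44.8 and 61.8 CPM in MMSET-Ikk2ca (median 58.1), against 29.2, 16.5, 28.2 and 35.3 CPM in Control(M) (log2 fold change 1.02, SE 0.234, adjusted p = 0.0125). Of its 14 transcripts the most abundant held 71.4% to 83.6% of its reads in MMSET-Ikk2ca and 32.5% to 64.3% in Control(M). Transgene and endogenous transcripts were counted together. Ccnd1, the cyclin D1 gene that the other cohort targets, stayed at or below 0.515 CPM in MMSET-Ikk2ca, against 0.0318, 0.148, 0.982 and 0.0164 CPM in Control(M), and was not called (adjusted p = 0.971).

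Genes of the IKK and NF-kB pathway rose in part. The counts per list stand against 6.91% of all tested genes called, 3.5% higher and 3.41% lower. Where a list holds a targeted gene, Nsd2 or Ikbkb, the rise of that gene was set by the design. Of 19 IKK kinases and upstream regulators, 5 rose and none fell (median log2 fold change 0.23), of 11 NF-kB subunits and IkB inhibitors 3 rose and none fell (median 1.17), and of 28 NF-kB target genes 7 rose and 3 fell (median 0.47). The risen members of the target and subunit lists with the 3 smallest p-values and a promoter in the reference table are shown with the 250 bases before their annotated start, to display where NF-kB motifs lie in them. Capitals mark a match to the NF-kB consensus or to GGAATTTCC on either strand, and the matches do not overlap. The consensus occurs in 5.0% and GGAATTTCC in 0.286% of 32851 promoter windows of this length. The windows are from RefSeq on GRCm38.p6, read 5′ to 3′ along the gene.
Icam1 (chr9:21015690-21015939, + strand): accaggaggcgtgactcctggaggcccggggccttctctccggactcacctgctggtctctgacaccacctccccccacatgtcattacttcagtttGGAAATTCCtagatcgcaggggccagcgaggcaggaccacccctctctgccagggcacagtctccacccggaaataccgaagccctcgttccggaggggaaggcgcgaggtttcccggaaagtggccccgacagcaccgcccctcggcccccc
Ebi3 (chr17:55952373-55952622, + strand): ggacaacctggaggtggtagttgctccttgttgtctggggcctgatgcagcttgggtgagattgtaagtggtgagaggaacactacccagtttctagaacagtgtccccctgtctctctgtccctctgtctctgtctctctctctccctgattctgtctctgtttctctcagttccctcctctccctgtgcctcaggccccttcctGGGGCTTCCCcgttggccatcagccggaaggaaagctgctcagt
Tnfaip3 (chr10:19015411-19015660, - strand): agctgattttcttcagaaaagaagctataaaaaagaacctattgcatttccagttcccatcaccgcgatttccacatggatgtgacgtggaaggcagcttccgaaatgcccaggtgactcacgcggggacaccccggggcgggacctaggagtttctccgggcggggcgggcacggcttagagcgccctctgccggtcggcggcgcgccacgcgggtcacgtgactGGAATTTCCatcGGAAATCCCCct
A match describes these letters only and is not evidence of binding.

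Among the kinases, Ikbke, the gene for the IKK-related kinase IKKε, lay between 22.9 and 37.7 CPM in MMSET-Ikk2ca (median 28.4), against 3.31, 3.35, 0.316 and 1.98 CPM in Control(M) (log2 fold change 3.71, SE 0.481, adjusted p = 1.54e-04). Cd40, a receptor of the TNF family that signals to NF-kB, lay between 15 and 32.3 CPM in MMSET-Ikk2ca (median 24.1), against 5.79, 2.03, 7.89 and 6.77 CPM in Control(M) (log2 fold change 2.06, SE 0.379, adjusted p = 0.00232). The groups did not overlap in either gene. Relb, the subunit of the noncanonical arm, lay between 48.3 and 77 CPM in MMSET-Ikk2ca (median 56.9), against 23.7, 13.2, 12.9 and 28.4 CPM in Control(M) (log2 fold change 1.63, SE 0.228, adjusted p = 2.83e-04). Nfkbia, which encodes the inhibitor IkBα and is itself an NF-kB target, lay between 431 and 688 CPM in MMSET-Ikk2ca (median 603), against 341, 139, 249 and 278 CPM in Control(M) (log2 fold change 1.22, SE 0.216, adjusted p = 0.00183). Bcl3 and Birc3, a nuclear IkB protein and a ubiquitin ligase of TNF receptor signalling, were closer to the threshold. Bcl3 rose by 1.52 and Birc3 by 0.95 on the log2 scale (adjusted p = 0.0355 and 0.0224). The Bcl3 call was lost without any 1 of 5 libraries (adjusted p = 0.0643 to 0.111, highest without Control(M) 4), and the Birc3 call was lost without any 1 of 4 libraries (adjusted p = 0.0502 to 0.0749, highest without Control(M) 4). The number that rose among the 19 kinases and regulators was 3 without MMSET-Ikk2ca 2, or Control(M) 2, 3 or 4.

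Of the target genes, Icam1, an adhesion molecule that binds leukocyte integrins, lay between 136 and 316 CPM in MMSET-Ikk2ca (median 251), against 63.8, 15.1, 27.3 and 48.2 CPM in Control(M) (log2 fold change 2.60, SE 0.384, adjusted p = 5.31e-04). Tnfaip3, which encodes A20, a ubiquitin-editing brake on NF-kB, lay between 108 and 258 CPM in MMSET-Ikk2ca (median 152), against 47.1, 8.59, 23.4 and 17.3 CPM in Control(M) (log2 fold change 2.85, SE 0.479, adjusted p = 0.00164). Its binding partner Tnip1 lay between 28 and 35.8 CPM in MMSET-Ikk2ca (median 32.5), against 14.7, 11.6, 22.3 and 12.3 CPM in Control(M) (log2 fold change 1.08, adjusted p = 0.00283). Ebi3, a cytokine subunit, lay between 21.3 and 48 CPM in MMSET-Ikk2ca (median 39.5), against 12.1, 13.2, 15.2 and 17.6 CPM in Control(M) (log2 fold change 1.37, adjusted p = 0.0016). In all 4 genes the groups did not overlap, and Control(M) 1 was the highest control in Icam1 and Tnfaip3. The Ebi3 call was lost in the fit of all 36 libraries (adjusted p = 0.0790). The targets that fell were Plek and the near-identical survival genes Bcl2a1b and Bcl2a1d, whose reads may be split between copies. Bcl2a1d had 0 reads in MMSET-Ikk2ca and 518 reads over the controls, so it was at least 313-fold lower, taking 3 reads over the group as the floor (adjusted p = 0.00679). The Bcl2a1d call was lost with the replicate number as a block (adjusted p = 0.0531). On leaving out a library, the count that rose among the targets was 4 without Control(M) 4. With 1 library fewer, the number that fell was 1 without MMSET-Ikk2ca 1, 3 or 4, or any 1 Ikk2ca(M) library, or any 1 Control(M) library.

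**Figure D2:**
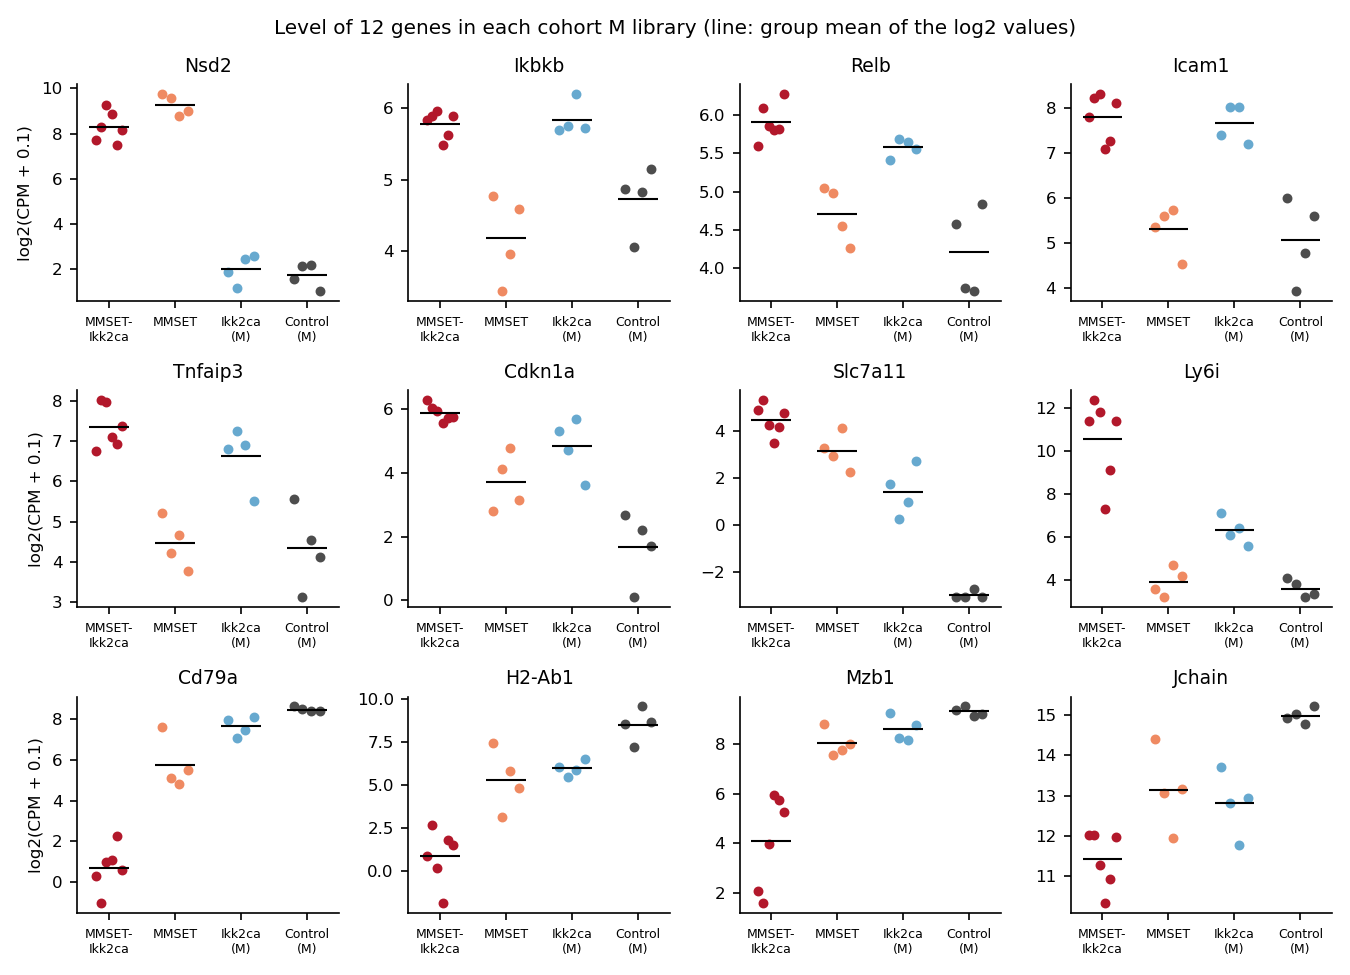
Level of 12 genes in each library of the cohort in log2(CPM + 0.1), with a line at the mean of each group. MMSET-Ikk2ca stands at the left and Control(M) at the right of each panel, with the groups with 1 transgene between them; Icam1, Relb and Tnfaip3 are high in MMSET-Ikk2ca and Ikk2ca(M), and Cd79a is lowest in MMSET-Ikk2ca.

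Interferon-stimulated genes and genes of the MHC class I pathway that changed were all higher. Of 33 interferon-stimulated genes, 15 rose and none fell (median 1.70). Ifi44 lay between 11.9 and 33.2 CPM in MMSET-Ikk2ca (median 18.8), against 0.0159, 0.115, 0.0166 and 0 CPM in Control(M) (log2 fold change 9.04, SE 1.36, adjusted p = 7.94e-04). Ifi27 lay between 49.8 and 133 CPM in MMSET-Ikk2ca (median 112), against 17.9, 35.6, 17.8 and 18.8 CPM in Control(M) (log2 fold change 2.12, SE 0.315, adjusted p = 4.78e-04), with Control(M) 2 the highest control. Xaf1, a proapoptotic interferon target, lay between 11.8 and 40.9 CPM in MMSET-Ikk2ca (median 31.2), against 3.63, 10.6, 4.88 and 4.4 CPM in Control(M) (log2 fold change 2.26, adjusted p = 8.73e-04). The count that rose came to 7 without Control(M) 1, and 9 without MMSET-Ikk2ca 2, or Control(M) 3 or 4. Among 15 interferon-inducible GTPases 3 rose, with Igtp between 113 and 319 CPM in MMSET-Ikk2ca (median 180.3), against 50.8, 55.1, 52.8 and 46.7 CPM in Control(M) (log2 fold change 1.99, adjusted p = 9.36e-04). In fits without 1 library, the number that rose among these GTPases was 1 without MMSET-Ikk2ca 6, or Control(M) 2 or 3, and 5 without Control(M) 1.

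Of 21 genes of MHC class I presentation and the immunoproteasome, 13 rose and none fell (median 0.81), and between 12 and 15 rose on leaving out any 1 library. H2-D1, a classical class I heavy chain, lay between 2456 and 4634 CPM in MMSET-Ikk2ca (median 3779), against 1406, 1237, 1609 and 1541 CPM in Control(M) (log2 fold change 1.28, SE 0.183, adjusted p = 3.20e-04). Tapbp, the chaperone tapasin that loads peptide, lay between 533 and 609 CPM in MMSET-Ikk2ca (median 573), against 384, 359.9, 351 and 332 CPM in Control(M) (log2 fold change 0.68, SE 0.11, adjusted p = 9.19e-04). Psme2, an activator subunit of the proteasome, lay between 119.6 and 159 CPM in MMSET-Ikk2ca (median 142), against 65.6, 73.9, 70 and 74.1 CPM in Control(M) (log2 fold change 0.98, adjusted p = 0.00131). The groups did not overlap in these genes. H2-Q6 rose by 1.40 on the log2 scale (adjusted p = 0.00139), with the reservation that class I genes are near-identical to each other.

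Most MHC class II and B cell genes that changed were lower. Of 11 class II genes 8 fell and 1 rose (median -6.14). H2-Ab1, a chain of the I-A molecule, lay between 0.165 and 6.37 CPM in MMSET-Ikk2ca (median 2.24), against 377, 148, 772 and 417 CPM in Control(M) (log2 fold change -7.39, SE 0.986, adjusted p = 5.31e-04). Its partner H2-Aa lay between 1.29 and 4.26 CPM in MMSET-Ikk2ca (median 2.74), against 169, 24.6, 411 and 150.2 CPM in Control(M) (log2 fold change -6.14, SE 0.794, adjusted p = 3.71e-04). The 2 chains fell together, and the controls differed among themselves, with Control(M) 2 lowest in both. H2-Eb2, a class II gene of lower level, had 23 reads in all in MMSET-Ikk2ca and stood at 18.1, 10.6, 14.8 and 11.3 CPM in Control(M) (log2 fold change -7.95, SE 0.778, adjusted p = 6.47e-06). H2-DMb2, a chain of the peptide exchanger, overlapped between groups, between 0.0141 and 1.75 CPM in MMSET-Ikk2ca (median 0.171), against 15.8, 0.951, 106 and 32.8 CPM in Control(M) (log2 fold change -6.23, adjusted p = 0.0216), and its call was lost without Control(M) 3 (adjusted p = 0.0555). The exception was Cd74, the invariant chain that escorts class II molecules, between 7569 and 13843 CPM in MMSET-Ikk2ca (median 10856), against 4163, 2662, 4674 and 4654 CPM in Control(M) (log2 fold change 1.43, SE 0.187, adjusted p = 1.63e-04). Between 6 and 9 class II genes fell on leaving out 1 library.

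Of 28 B cell identity genes 12 fell and 2 rose (median -2.07). Beside Cd79a and Btla, Ebf1, a transcription factor of early and mature B cells, had 2 reads in all in MMSET-Ikk2ca and stood at 12.1, 10.4, 11.6 and 4.2 CPM in Control(M), 2129-fold lower by read counts (95% counting interval 589 to 17589). Cd22, an inhibitory coreceptor, lay between 0 and 1.2 CPM in MMSET-Ikk2ca (median 0.753), against 33.5, 1.51, 91.4 and 12.6 CPM in Control(M) (log2 fold change -5.76, adjusted p = 0.0458), a call that was lost without any 1 of 13 libraries (adjusted p = 0.0549 to 0.131, highest without Control(M) 3). Ms4a1, which encodes CD20, was called but overlapped, between 22.5 and 70.8 CPM in MMSET-Ikk2ca (median 32), against 88.6, 135, 147 and 64.1 CPM in Control(M) (log2 fold change -1.47, adjusted p = 0.0312), and its call was lost without any 1 of 7 libraries (adjusted p = 0.0512 to 0.10, highest without Control(M) 3). Pax5, the master regulator of B cell identity, lay between 0 and 0.709 CPM in MMSET-Ikk2ca (median 0), against 2.55, 0.0164, 15.6 and 7.54 CPM in Control(M) and was not called (adjusted p = 0.107). The 2 genes that rose were Ly6d and Cd52, a small surface glycoprotein, which lay between 941 and 2588 CPM in MMSET-Ikk2ca (median 1555), against 441, 279.7, 353 and 279.5 CPM in Control(M) (log2 fold change 2.26, SE 0.28, adjusted p = 1.05e-04). The number that fell was 7 without MMSET-Ikk2ca 2, 3 or 6, or Control(M) 1. Whether B cells in the control gate contribute to these values was not tested; the summed level of the whole B cell list was 2738 to 4708 CPM in MMSET-Ikk2ca and 2229.9 to 2885 CPM in Control(M), with Cd52 and Ly6d its largest members in MMSET-Ikk2ca.

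Several genes of the plasma cell program were lower. Of 28 plasma cell identity genes 8 fell and 2 rose (median -0.40). Jchain, which links the units of IgM and IgA polymers, lay between 1275 and 4150.0 CPM in MMSET-Ikk2ca (median 3239.9), against 31474, 33326, 28069 and 38179.5 CPM in Control(M) (log2 fold change -3.45, SE 0.469, adjusted p = 6.23e-04). Mzb1, an endoplasmic reticulum cochaperone that helps assemble IgM, lay between 2.87 and 61.3 CPM in MMSET-Ikk2ca (median 27.1), against 671, 733, 561 and 596 CPM in Control(M) (log2 fold change -4.44, SE 0.709, adjusted p = 0.00161). The lowest control exceeded the highest MMSET-Ikk2ca library several-fold in both genes. Txndc5, a disulfide isomerase, lay between 569.8 and 969 CPM in MMSET-Ikk2ca (median 815), against 2513, 2969.8, 2724 and 2437 CPM in Control(M) (log2 fold change -1.74, SE 0.191, adjusted p = 2.28e-05). Ell2, an elongation factor that promotes secretory-type immunoglobulin mRNA, lay between 96.8 and 145 CPM in MMSET-Ikk2ca (median 118), against 212, 300.5, 195 and 186 CPM in Control(M) (log2 fold change -0.90, SE 0.145, adjusted p = 9.19e-04). Between 6 and 9 genes of the list fell on leaving out 1 library. Jchain lies on chromosome 5, whose genes were lower as a whole in 5 of the 6 MMSET-Ikk2ca libraries.

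Some genes of surface proteins and other drug targets in human myeloma fell as well, with 5 of 16 lower and none higher (median -0.50). Tnfrsf17, which encodes BCMA, the receptor for the survival factor APRIL, lay between 6.28 and 22.6 CPM in MMSET-Ikk2ca (median 14.7), against 62.4, 44.9, 57.2 and 73.7 CPM in Control(M) (log2 fold change -2.01, SE 0.349, adjusted p = 0.00164). Cd48, a ligand of lymphocyte receptors, lay between 5.48 and 19.2 CPM in MMSET-Ikk2ca (median 11.8), against 40.8, 46.6, 70.7 and 34.4 CPM in Control(M) (log2 fold change -2.02, SE 0.35, adjusted p = 0.00158). Both were lower without overlap. Fcrl5, an Fc receptor-like protein, had 86 reads in all in MMSET-Ikk2ca but ranged widely in the controls, 4.31, 0.672, 15.3 and 0.18 CPM in Control(M) (log2 fold change -4.67, adjusted p = 0.0269); the call was lost without Control(M) 3 (adjusted p = 0.162), MMSET-Ikk2ca 1 (adjusted p = 0.0558) or MMSET-Ikk2ca 2 (adjusted p = 0.0559). Ikzf1, the target of immunomodulatory drugs, was also called lower (log2 fold change -0.55, adjusted p = 0.0388), and that call was lost without any 1 of 12 libraries (adjusted p = 0.0502 to 0.169, highest without Control(M) 4). On leaving out a library, the count that fell was 2 without Control(M) 3, and 3 without MMSET-Ikk2ca 1, 2 or 3, or Ikk2ca(M) 3, or Control(M) 1, 2 or 4.

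Of 34 endoplasmic reticulum genes of folding, translocation and secretion, 4 rose and none fell (median 0.16). That is 11.8% called, against 6.91% of all tested genes. Derl1, part of the channel that exports misfolded proteins, lay between 291 and 413 CPM in MMSET-Ikk2ca (median 337), against 190.3, 239, 169 and 220.1 CPM in Control(M) (log2 fold change 0.73, SE 0.135, adjusted p = 0.00248). With 1 library fewer, the number that rose was 1 without Control(M) 3, and 2 without MMSET-Ikk2ca 1, 2 or 3, or Control(M) 1. Of 21 genes of the ATF4 and amino acid stress response, 5 rose and none fell (median 0.47). Beside Slc7a11 these included Nupr1, a stress-induced chromatin protein, between 9.94 and 48.4 CPM in MMSET-Ikk2ca (median 20.4), against 1.23, 1.3, 1.58 and 0.0654 CPM in Control(M) (log2 fold change 4.52, SE 0.723, adjusted p = 9.36e-04), and Mthfd2, a mitochondrial folate enzyme, between 35.3 and 60.3 CPM in MMSET-Ikk2ca (median 44), against 12.9, 20.1, 17.5 and 20.1 CPM in Control(M) (log2 fold change 1.39, adjusted p = 0.00226). The count that rose came to 3 without Control(M) 3.

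More targets of p53 rose than fell, while genes of DNA replication and mitosis gave few calls. Of 21 p53 targets 6 rose and 1 fell (median 0.92). In fits without 1 library, the number that fell was 0 without Control(M) 2 or 4. Cdkn1a, which encodes the cell cycle inhibitor p21, lay between 47 and 77.4 CPM in MMSET-Ikk2ca (median 57.7), against 6.38, 0.968, 4.49 and 3.19 CPM in Control(M) (log2 fold change 3.99, SE 0.547, adjusted p = 3.38e-04). Zmat3, an RNA-binding p53 target, lay between 9.94 and 21.4 CPM in MMSET-Ikk2ca (median 15.1), against 6.17, 3.94, 2.06 and 4.52 CPM in Control(M) (log2 fold change 1.85, SE 0.322, adjusted p = 0.0016). Ccng1, cyclin G1, lay between 73 and 116 CPM in MMSET-Ikk2ca (median 104), against 62, 56.1, 52.5 and 42.1 CPM in Control(M) (log2 fold change 0.91, adjusted p = 0.00895). The groups did not overlap in these 3 genes. Bbc3, the proapoptotic BCL2 family member PUMA, rose by 1.12 on the log2 scale (adjusted p = 0.0157), a call lost with the replicate number as a block (adjusted p = 0.0738). Between 4 and 7 p53 targets rose on leaving out 1 library.

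Of 16 BCL2 family genes 3 rose and 2 fell. Bcl2l11, the proapoptotic protein BIM, lay between 12.1 and 39.2 CPM in MMSET-Ikk2ca (median 25.2), against 8.55, 6.77, 11.8 and 12.6 CPM in Control(M) (log2 fold change 1.40, SE 0.295, adjusted p = 0.00701), with a slight overlap. Bcl2l1, the survival protein BCL-XL, rose by 1.56 (adjusted p = 0.0255), a call lost without any 1 of 4 libraries (adjusted p = 0.0505 to 0.0807, highest without Control(M) 4). The 2 that fell were the Bcl2a1 copies given above. The number that fell was 1 without MMSET-Ikk2ca 1, 2, 3, 4 or 6, or MMSET 4, or any 1 Ikk2ca(M) library, or any 1 Control(M) library.

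Of 23 genes of the D-type cyclin, CDK and RB axis, Cdkn1a rose and 2 fell (median -0.05). On leaving out a library, the count that rose was 2 without Control(M) 1 or 4. Cdkn2c, the CDK inhibitor p18 that plasma cell differentiation requires, lay between 1.13 and 3.43 CPM in MMSET-Ikk2ca (median 2.27), against 8.56, 13.2, 7.69 and 6.4 CPM in Control(M) (log2 fold change -2.03, SE 0.314, adjusted p = 6.94e-04). Cdk6, a kinase partner of D-type cyclins, had 16 reads in all in MMSET-Ikk2ca and stood at 3.42, 6.59, 9.87 and 3.16 CPM in Control(M) (log2 fold change -7.29, SE 1.58, adjusted p = 0.00881). The groups did not overlap in either gene, and Cdk6 lies on chromosome 5. Of 35 DNA replication genes 2 rose (Fen1 and Tk1) and none fell, 5.71% called against 6.91% of all tested genes. With 1 library fewer, the number that rose was 0 without MMSET-Ikk2ca 1, 2, 3 or 5, or Control(M) 2 or 4. None of 31 mitosis genes was called by edgeR, DESeq2 or limma voom, and 3 had an unadjusted p below 0.05 by edgeR (median 0.37). Summed, they ranged over 36.1 to 339 CPM in MMSET-Ikk2ca and 99.4 to 319 CPM in Control(M). Among 16 enzymes of H3K36 and H3K27 methylation 2 rose, of which 1 is the targeted gene Nsd2, and 2 fell. The count that fell among these came to 0 without Control(M) 3 or 4, and 1 without MMSET-Ikk2ca 1, 2, 3 or 5, or MMSET 2 or 4, or Ikk2ca(M) 1 or 2, or Control(M) 1 or 2. Smyd2, a lysine methyltransferase, was between 19 and 35.4 CPM in MMSET-Ikk2ca (median 25.1), against 6.27, 8.68, 2.85 and 4.45 CPM in Control(M) (log2 fold change 2.19, SE 0.401, adjusted p = 0.00227). Ezh2, the H3K27 methyltransferase of the Polycomb complex, lay between 1.61 and 6.58 CPM in MMSET-Ikk2ca (median 4.61), against 10.4, 7.68, 21 and 23.7 CPM in Control(M) (log2 fold change -1.78, adjusted p = 0.0163), and its call was lost without Control(M) 3 (adjusted p = 0.0572) or Control(M) 4 (adjusted p = 0.0657).

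Genes of adhesion and migration fell more often than they rose, with 9 of 30 lower and 2 higher (median -0.68). S1pr1, the receptor that guides lymphocytes out of tissues, had 1 read in all in MMSET-Ikk2ca and stood at 9.56, 0.459, 28.8 and 4.66 CPM in Control(M), 4781-fold lower by read counts (95% counting interval 857 to 188910.0). Anxa2, the membrane-binding annexin A2, had 1 read in MMSET-Ikk2ca, against 4.39, 0.804, 14.1 and 10.2 CPM in Control(M), 3251-fold lower by read counts (95% counting interval 583 to 128490.0). The chemokine receptor Cxcr3 likewise had 1 read, against 5.82, 2.49, 10.8 and 6.84 CPM in Control(M). Each of these genes was present in every control and all but absent from the 6 MMSET-Ikk2ca libraries. Pecam1, an adhesion molecule of leukocytes and endothelium, rose, between 27.2 and 83.9 CPM in MMSET-Ikk2ca (median 35.1), against 10.8, 13.3, 7.36 and 11.3 CPM in Control(M) (log2 fold change 2.04, SE 0.314, adjusted p = 6.74e-04). Between 8 and 13 members fell on leaving out 1 library. In fits without 1 library, the number that rose was 1 without Control(M) 1 or 4.

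Of 21 immune interaction ligands and receptors 4 rose and 4 fell. Lgals9, which encodes galectin-9, lay between 46.7 and 97.5 CPM in MMSET-Ikk2ca (median 81.6), against 20.9, 19.7, 23.9 and 27 CPM in Control(M) (log2 fold change 1.73, SE 0.258, adjusted p = 5.07e-04). Cd47, which inhibits phagocytosis, lay between 198 and 399 CPM in MMSET-Ikk2ca (median 337), against 119, 146, 161 and 149.7 CPM in Control(M) (log2 fold change 1.10, SE 0.215, adjusted p = 0.00406). Cd200, a ligand that restrains myeloid cells, had 1 read in all in MMSET-Ikk2ca, against 7.59, 10.1, 13.2 and 10.8 CPM in Control(M), 4616-fold lower by read counts (95% counting interval 828 to 182403). Of 23 TNF superfamily genes, Tnfsf10, the death ligand TRAIL, rose by 1.65 on the log2 scale (adjusted p = 0.00534), Cd40 rose and Tnfrsf17 fell. The number that rose was 4 without MMSET-Ikk2ca 4 or 6. On leaving out a library, the count that fell was 2 without MMSET-Ikk2ca 4, or MMSET 1 or 4.

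Metabolic genes gave calls in both directions. Of 24 genes of sterol and fatty acid synthesis 4 rose and 1 fell (median 0.34). With 1 library fewer, the number that fell was 0 without MMSET-Ikk2ca 1, 2, 3, 5 or 6, or MMSET 2, 3 or 4, or Ikk2ca(M) 2, or Control(M) 1, 2 or 3. Abcg1, a cholesterol exporter, lay between 109.7 and 148 CPM in MMSET-Ikk2ca (median 132), against 35.5, 28.8, 35.1 and 30.3 CPM in Control(M) (log2 fold change 1.98, SE 0.259, adjusted p = 1.63e-04). Scd2, a fatty acid desaturase, lay between 82.4 and 179.5 CPM in MMSET-Ikk2ca (median 106), against 47.2, 32, 46.5 and 29 CPM in Control(M) (log2 fold change 1.66, SE 0.289, adjusted p = 0.0016). Of 22 genes of glycolysis and glucose uptake 2 rose and 3 fell (median 0.00). Arrdc4, an arrestin that restrains glucose uptake, lay between 28.4 and 75 CPM in MMSET-Ikk2ca (median 41.7), against 0.0318, 0.0656, 1.91 and 1.1 CPM in Control(M) (log2 fold change 5.96, SE 0.891, adjusted p = 9.14e-04), and the lactate transporter gene Slc16a1 had 1 read in MMSET-Ikk2ca, against 4.01, 0.672, 1.95 and 0.0164 CPM in Control(M) (adjusted p = 0.0166). The count that rose among these came to 1 without MMSET-Ikk2ca 2, 3 or 6, or Control(M) 1, 2 or 4. In fits without 1 library, the number that fell was 1 without MMSET-Ikk2ca 3, or Control(M) 3 or 4. Of 35 nuclear genes of oxidative phosphorylation 2 rose (median 0.21), 5.71% called against 6.91% of all tested genes. The number that rose among these was 1 without MMSET-Ikk2ca 1, 2, 5 or 6, or Control(M) 1, 3 or 4. Of 21 stress and immediate-early genes 4 rose, with Jun, a component of AP-1, between 43.9 and 121 CPM in MMSET-Ikk2ca (median 84.7), against 38.5, 17.5, 13.7 and 28 CPM in Control(M) (log2 fold change 1.77, SE 0.323, adjusted p = 0.00226). On leaving out a library, the count that rose among these was 1 without Control(M) 2 or 3, and 2 without MMSET-Ikk2ca 2, 3 or 6, or Control(M) 4.

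**Figure D3:**
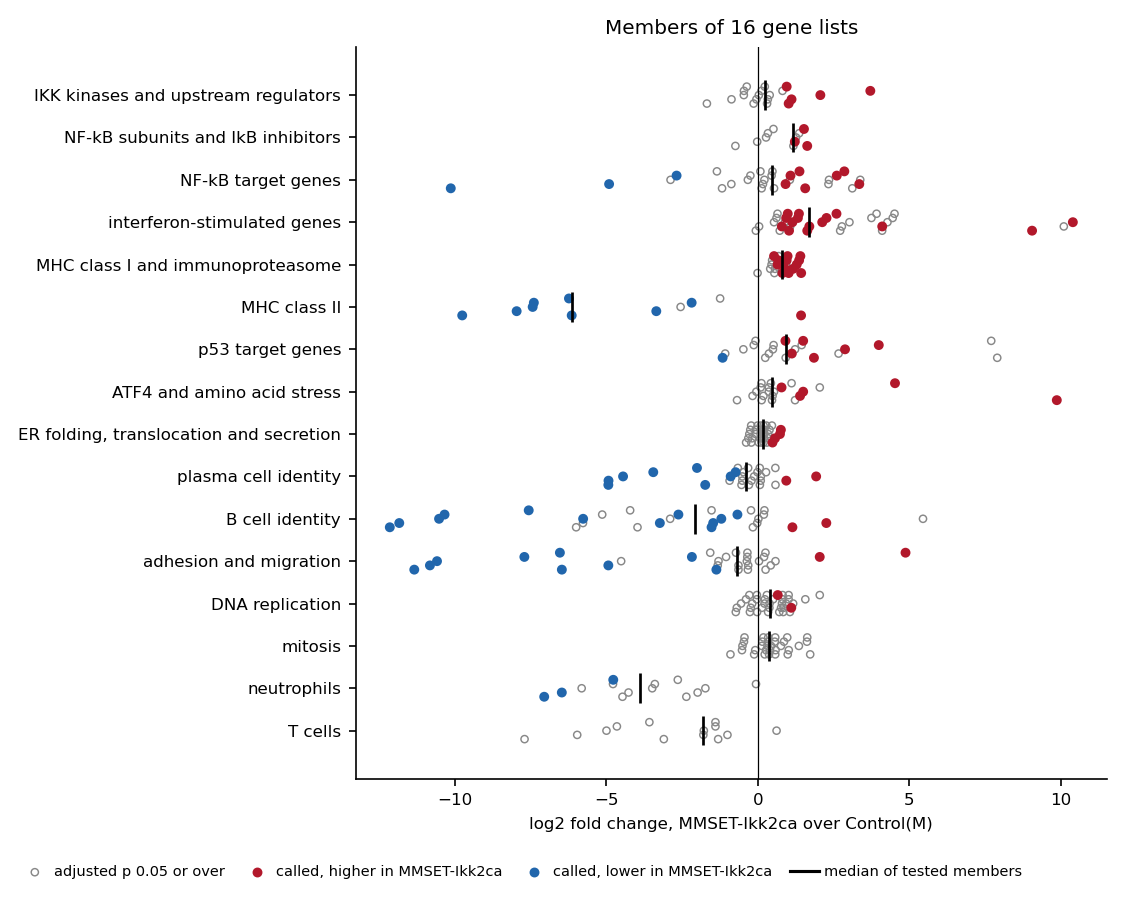
Log2 fold change of MMSET-Ikk2ca over Control(M) for the tested members of 16 gene lists, 1 point per gene, with a bar at the median of each list. Red and blue points are the called genes; class I and interferon genes lie to the right, and class II (median -6.14), B cell (-2.07) and neutrophil genes (-3.87) to the left.

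The summed level of neutrophil markers was lower in every MMSET-Ikk2ca library than in every control. The same held for the summed T cell markers, which were low in both groups. Summed over 16 neutrophil genes, the level was 1.71 to 19.1 CPM in MMSET-Ikk2ca and 42.2 to 219.8 CPM in Control(M), and 3 of 14 tested genes fell (median -3.87). S100a8, an abundant neutrophil protein, lay between 0.284 and 4.7 CPM in MMSET-Ikk2ca (median 1.65), against 76.4, 74.7, 51.4 and 16.1 CPM in Control(M) (log2 fold change -4.77, adjusted p = 0.0413), a call lost without any 1 of 12 libraries (adjusted p = 0.0531 to 0.0843, highest without MMSET-Ikk2ca 2). With 1 library fewer, the number that fell was 0 without MMSET-Ikk2ca 2 or 6, 1 without MMSET-Ikk2ca 3, 4 or 5, or Ikk2ca(M) 2, or Control(M) 1, 2 or 3, and 5 without MMSET 1. The defining marker Elane was at or below 0.329 CPM in MMSET-Ikk2ca, against 0.684, 0, 0.483 and 0 CPM in Control(M). The T cell genes summed to 2.14 to 7.09 CPM in MMSET-Ikk2ca and 8.91 to 26 CPM in Control(M) (median log2 fold change -1.80). None of 13 was called by edgeR, while 5 had an unadjusted p below 0.05 and DESeq2 and limma voom called 3 each, all lower. Cd3e, the defining T cell marker, did not exceed 0.226 CPM in MMSET-Ikk2ca, against 0.939, 0.623, 0.30 and 0 CPM in Control(M). Cytotoxic genes summed to 5.11 to 16 CPM in MMSET-Ikk2ca and 14.3 to 29.9 CPM in Control(M), with Prf1, the pore-forming protein perforin, at 1 read in all in MMSET-Ikk2ca, against 3.53, 5.17, 6.34 and 4.56 CPM in Control(M). Of 16 monocyte and macrophage genes 1 rose and 2 fell, with C1qb, a complement chain, between 10.2 and 35.4 CPM in MMSET-Ikk2ca (median 15.3), against 5.33, 3.02, 2.86 and 2.8 CPM in Control(M) (log2 fold change 2.50, SE 0.497, adjusted p = 0.00456), while C1qa did not pass the test (adjusted p = 0.818). The C1qb call was lost in the fit of all 36 libraries and with limma voom (adjusted p up to 0.126). The count that fell among the monocyte and macrophage genes came to 1 without MMSET-Ikk2ca 1, 2 or 3, or any 1 Control(M) library. Red cell genes had a median log2 fold change of -2.97 over 8 tested members, and the defining marker Hba-a1, a haemoglobin chain, was not called by edgeR (log2 fold change -2.51, adjusted p = 0.28), though limma voom called it lower (adjusted p = 0.0138). The erythrocyte anion exchanger gene Slc4a1 was above the controls in 5 of 6 libraries and at 0 in MMSET-Ikk2ca 4 (log2 fold change 7.84, adjusted p = 0.0423), and its call was lost without any 1 of 11 libraries (adjusted p = 0.0517 to 0.113, highest without Control(M) 4). Of 8 dendritic cell genes Bst2 rose and Ccr9 fell, and of 5 B cell precursor genes Ebf1 fell. The list for NK and cytotoxic cells had Prf1 as its single call among 8 tested genes, the red cell list Slc4a1 among 8, and that for stroma and endothelium Pecam1 among 2. None of 2 megakaryocyte genes and 4 basophil, eosinophil and mast cell genes was called by edgeR, DESeq2 or limma voom, and by edgeR 0 and 1 of them had an unadjusted p below 0.05. Lists with members at 3 reads or fewer in a group kept their medians when these members were set to 3 reads. The part of other cells in the results above was not tested.

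The groups with 1 transgene were compared in the same fit. Against Control(M), MMSET alone gave 100 calls (0.649% of tested genes) and Ikk2ca(M) also gave 100 (0.649%), while MMSET-Ikk2ca differed from MMSET in 244 genes (1.58%) and from Ikk2ca(M) in 148 (0.96%). By edgeR 2048 genes had an unadjusted p below 0.05 for MMSET and 1912 for Ikk2ca(M) against Control(M), and 3365 for MMSET-Ikk2ca. The groups with 1 transgene had 4 libraries each and MMSET-Ikk2ca had 6, so the counts of calls do not measure the size of an effect. These comparisons share libraries. Nsd2 averaged 346 ± 168 CPM in MMSET-Ikk2ca (n = 6), 639.8 ± 194 in MMSET, 4.23 ± 1.73 in Ikk2ca(M) and 3.41 ± 1.23 in Control(M). Ikbkb averaged 55.2 ± 6.64 CPM in MMSET-Ikk2ca (n = 6), 19.3 ± 7.55 in MMSET, 57.7 ± 10.2 in Ikk2ca(M) and 27.3 ± 7.83 in Control(M). Each transgene thus stood where its label puts it. Of the 116 named genes that were called against Control(M), 45 also differed from MMSET and 29 from Ikk2ca(M). Apart from targeted genes and defining markers, these genes were chosen by their values in the same MMSET-Ikk2ca libraries. That choice raises both counts, so they are not set against the shares of all tested genes.

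The NF-kB genes Icam1, Relb and Ikbke were high in both groups that carry Ikk2ca. Icam1 averaged 234 ± 75.6 CPM in MMSET-Ikk2ca (n = 6), 41.4 ± 13 in MMSET, 209 ± 59.9 in Ikk2ca(M) and 38.6 ± 21.7 in Control(M). Relb averaged 60.4 ± 10.3 CPM in MMSET-Ikk2ca (n = 6), 26.7 ± 6.64 in MMSET, 47.7 ± 4.04 in Ikk2ca(M) and 19.5 ± 7.77 in Control(M). Ikbke averaged 29.3 ± 5.54 CPM in MMSET-Ikk2ca (n = 6), 7.06 ± 2.11 in MMSET, 28.5 ± 12 in Ikk2ca(M) and 2.24 ± 1.43 in Control(M). All 3 differed from MMSET, with log2 fold changes of 2.50 (adjusted p = 0.00238) for Icam1, 1.18 (adjusted p = 0.00996) for Relb and 2.05 (adjusted p = 0.0227) for Ikbke, and none was called against Ikk2ca(M). Slc7a11 and Ncan were called higher in each single transgenic group as well, Slc7a11 with 8.56 (adjusted p = 4.08e-06) in MMSET and 6.90 (adjusted p = 1.51e-04) in Ikk2ca(M), and Ncan with 3.34 (adjusted p = 0.0247) and 6.04 (adjusted p = 8.15e-04) on the log2 scale over Control(M). Slc7a11 averaged 24.5 ± 10.3 CPM in MMSET-Ikk2ca (n = 6), 9.94 ± 5.51 in MMSET, 3.16 ± 2.37 in Ikk2ca(M) and 0.0247 ± 0.0169 in Control(M), and MMSET-Ikk2ca exceeded Ikk2ca(M) by 2.95 (adjusted p = 0.00517) on the log2 scale. Ncan averaged 277 ± 60.6 CPM in MMSET-Ikk2ca (n = 6), 25.6 ± 24.3 in MMSET, 167 ± 75 in Ikk2ca(M) and 2.52 ± 1.61 in Control(M).

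Other genes stood apart from both single transgenic groups. Ly6i averaged 2492 ± 1909 CPM in MMSET-Ikk2ca (n = 6), 16.2 ± 7.55 in MMSET, 85 ± 39.6 in Ikk2ca(M) and 12.3 ± 3.6 in Control(M), a log2 difference of 7.27 (adjusted p = 0.0017) from MMSET and 4.87 (adjusted p = 0.012) from Ikk2ca(M). Cd79a averaged 1.9 ± 1.47 CPM in MMSET-Ikk2ca (n = 6), 76 ± 80.5 in MMSET, 209.6 ± 65.9 in Ikk2ca(M) and 359 ± 28.4 in Control(M), with adjusted p = 7.16e-04 against MMSET and 1.60e-04 against Ikk2ca(M). The plasma cell genes Mzb1 and Txndc5 showed the same order of means. Mzb1 averaged 29.4 ± 25.4 CPM in MMSET-Ikk2ca (n = 6), 277 ± 118 in MMSET, 405 ± 147 in Ikk2ca(M) and 640.2 ± 77 in Control(M), with log2 fold changes of -3.24 (adjusted p = 0.0289) over MMSET and -3.78 (adjusted p = 0.0152) over Ikk2ca(M). Txndc5 averaged 799 ± 135 CPM in MMSET-Ikk2ca (n = 6), 1412 ± 443 in MMSET, 1831 ± 481 in Ikk2ca(M) and 2661 ± 239 in Control(M). Cdkn2c averaged 2.19 ± 0.849 CPM in MMSET-Ikk2ca (n = 6), 7.63 ± 2.04 in MMSET, 9.61 ± 1.13 in Ikk2ca(M) and 8.96 ± 2.96 in Control(M), and the interferon gene Xaf1 averaged 28.2 ± 11.6 CPM in MMSET-Ikk2ca (n = 6), 6.48 ± 1.14 in MMSET, 9.07 ± 1.79 in Ikk2ca(M) and 5.88 ± 3.19 in Control(M). Both differed from each single transgenic group, Cdkn2c with adjusted p = 0.00531 against MMSET and 0.00159 against Ikk2ca(M), and Xaf1 with 0.00462 and 0.0257 in that order. Against MMSET the count was 124, 126, 154 and 140 without MMSET-Ikk2ca 1, 2, 3 and 6 and 138 and 160 without MMSET 1 and 2. Against Ikk2ca(M) it was 93 without MMSET-Ikk2ca 3, 239 without MMSET-Ikk2ca 4, and 89 and 76 without Ikk2ca(M) 1 and 4.

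The other double transgenic model, Ccnd1-Ikk2ca, shares no library with this comparison. In a fit of all 36 libraries, MMSET-Ikk2ca against Control(M) gave 1291 calls (7.54% of 17116 genes) and Ccnd1-Ikk2ca against Control(D) gave 1632 (9.53%). In the same direction they shared 529 genes, 271 higher and 258 lower, which is 41.0% of the MMSET-Ikk2ca calls and 32.4% of the Ccnd1-Ikk2ca calls, and 3 genes were called in opposite directions. The test of the difference between the 2 effects called 30 genes (0.175%), 10 with a higher (0.0584%) and 20 with a lower effect (0.117%) in MMSET-Ikk2ca. By edgeR 1910 genes had an unadjusted p below 0.05 in that test. Leaving out Control(D) 2 gave 14 calls, Control(D) 3 16, Control(M) 2 17 and Ccnd1-Ikk2ca 3 18.

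Beside the targeted genes Nsd2 and Ccnd1, the genes with a lower effect in MMSET-Ikk2ca were led by Fmnl1, a formin of the actin cytoskeleton of leukocytes. Fmnl1 had 1 read in all in MMSET-Ikk2ca and 21.3, 11.9, 22.3 and 16.5 CPM in Control(M), and on the scale of the 36 libraries it averaged 3.88 CPM in Ccnd1-Ikk2ca and 35.5 in Control(D) (difference of the log2 effects -8.87, SE 1.55, adjusted p = 0.00669). Ebf1 and Cd79a fell in both models, and further in MMSET-Ikk2ca, with differences of -7.45 (adjusted p = 0.0107) and -4.69 (adjusted p = 5.60e-04). Nrp2, a semaphorin coreceptor, averaged 0.121 CPM in MMSET-Ikk2ca and 14.2 in Control(M), but 6.88 in Ccnd1-Ikk2ca and 7.78 in Control(D) (difference -6.61, adjusted p = 6.57e-04). Cdkn2c moved in opposite directions, at 2.15 CPM in MMSET-Ikk2ca and 8.75 in Control(M), against 18.9 in Ccnd1-Ikk2ca and 9.27 in Control(D) (difference -3.06, adjusted p = 6.47e-05). The genes with a higher effect in MMSET-Ikk2ca included Mpeg1, a pore-forming protein of phagocytes, at 66.1 CPM in MMSET-Ikk2ca and 6.43 in Control(M), against 3.24 in Ccnd1-Ikk2ca and 5.48 in Control(D) (difference 4.12, adjusted p = 0.029). Napsa, an aspartic protease, Irf7, an interferon regulatory factor, and Ticam1, the adaptor TRIF, showed differences of 2.24 (adjusted p = 0.00148), 1.87 (adjusted p = 0.0391) and 1.40 (adjusted p = 0.00719).

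The genes of chromosome 5 were lower as a block. Of 967 tested chromosome 5 genes other than immunoglobulin genes, 77 fell (7.96%, against 3.21% of all tested genes other than immunoglobulin genes) and 10 rose (against 3.55% of all), with a median log2 fold change of -0.51, while on the other chromosomes 1.36% to 4.81% fell and the medians lay between -0.10 and 0.13. Per library, the median log2 level of 337 chromosome 5 genes relative to the mean of Control(M) was -0.78, -0.78, -0.78, -0.04, -0.42 and -0.61 in MMSET-Ikk2ca 1 to 6 and -0.06, -0.09, 0.09 and 0.05 in the controls. So 5 of the 6 libraries lay below all controls, and MMSET-Ikk2ca 4 lay among them. These genes averaged at least 10 CPM in Control(M), and the median over such genes of all chromosomes was subtracted in each library. On that scale 95.3% of them were below the control mean in the lowest library and 52.5% in MMSET-Ikk2ca 4. In the controls 41.5% to 59.9% were. In the 3 libraries at -0.78 every 15 Mb window with at least 15 genes had a median of -0.50 or less. The first 15 Mb, with 10 genes, varied, at -1.01, 0.50, -0.89, 0.28, -0.10 and -0.14 in MMSET-Ikk2ca 1 to 6. No other chromosome's median left the range from -0.19 to 0.14 in MMSET-Ikk2ca. The group difference was -0.54 over 294 genes that averaged at least 10 CPM over both groups, relative to the mean of both. The exact two-sided permutation test over 6 against 4 libraries gave p = 0.0238 (adjusted p = 0.0794 over 20 chromosomes, smallest possible p 0.00476). Chromosomes 2, 4 and 17 had a smaller p by this test (0.00952 each), as had X (0.0143) and 7 (0.0190). Their differences lay between 0.06 and 0.10. For chromosome 5 the difference was -0.65 without MMSET-Ikk2ca 4 and -0.51 without Control(M) 3 (exact permutation p = 0.0595). MMSET 3 stood at -0.53 and Ikk2ca(M) 1 to 3 at -0.22, -0.31 and -0.22. In the other double transgenic model, Ccnd1-Ikk2ca 1 to 6 stood at -0.71, -0.13, -0.78, -0.72, -0.72 and -0.51 relative to the mean of Control(D), whose libraries lay between -0.02 and 0.03 (345 genes). Nsd2, Jchain and Cdk6 lie on this chromosome, and the part of its level in their values was not tested; Nsd2 was higher despite it.

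**Figure D4:**
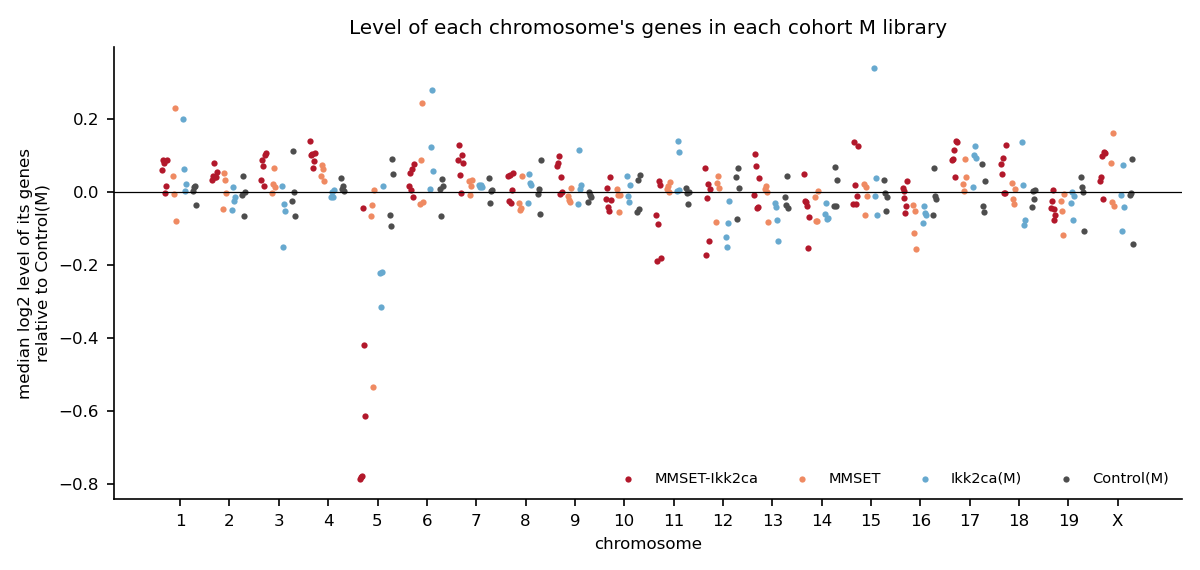
Median log2 level of each chromosome's genes relative to the mean of the Control(M) libraries (vertical axis), 1 point per library, for chromosomes 1 to 19 and X. On chromosome 5 the MMSET-Ikk2ca libraries (red) reach -0.78 while MMSET-Ikk2ca 4 stays at -0.04 with the controls (dark grey), and the other chromosomes stay between -0.19 and 0.14 in MMSET-Ikk2ca, with single libraries of other groups further from 0 (Ikk2ca(M) 1 at 0.34 on chromosome 15).

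Immunoglobulin transcripts took 43.9% to 65.9% of reads in MMSET-Ikk2ca (mean 58.4% ± 8.01) and 65.6% to 67.8% in Control(M) (66.6% ± 0.901), a difference of -8.29 percentage points (exact two-sided permutation test, p = 0.0429, adjusted p = 0.0825 over 4 such shares, 6 against 4 libraries). With TPM the difference was -3.52 (exact permutation p = 0.276), and with MMSET-Ikk2ca 1 to 4 alone it was -4.34 (exact permutation p = 0.0571). MMSET-Ikk2ca 6 was the lowest, and without it the difference was -5.39 (exact permutation p = 0.0556). The exact permutation p was 0.0635 without MMSET-Ikk2ca 2, 3 or 5, and 0.107, 0.131, 0.107 and 0.0714 without Control(M) 1 to 4. As a measure of how mixed the immunoglobulin reads are, which does not count cells, the share of the leading V gene was taken. The most used heavy chain V gene held 62.7%, 49.3%, 36%, 27.6%, 22.9% and 68.3% of Ighv reads in MMSET-Ikk2ca 1 to 6, against 11.6%, 10.5%, 30.8% and 14% in Control(M) (exact permutation p = 0.0333, adjusted p = 0.0825). This difference was 27.8 percentage points, and 32.5 without Control(M) 3. The exact permutation p was 0.0556 without MMSET-Ikk2ca 1, 2 or 6 and 0.0714 without Control(M) 1, 2 or 4. Each MMSET-Ikk2ca library led with a different gene, which was Ighv14-3, Ighv1-72, Ighv1-7, Ighv1-9, Ighv11-2 and Ighv1-37 in order, while Ighv11-2 led in Control(M) 1 and Control(M) 3. The share was 33.6%, 28.1%, 42.0% and 68.0% in Ikk2ca(M) 1 to 4 and 17.2%, 14.5%, 57.2% and 23.2% in MMSET 1 to 4. Within each of these groups the leading gene also differed between libraries. The most used kappa V gene held 18.9% to 85.4% of Igkv reads in MMSET-Ikk2ca and 13.0% to 28.4% in Control(M) (exact permutation p = 0.0619), and the p was 0.0317 without MMSET-Ikk2ca 4 and 0.0238 without MMSET-Ikk2ca 5. MMSET-Ikk2ca 3 was the highest, with Igkv12-44. The kappa share was 31.3% to 82.3% in Ikk2ca(M) and 18.9% to 37.3% in MMSET. In MMSET-Ikk2ca 1 and 2 most light chain constant reads were lambda (83.6% and 75.6%), so kappa covers the smaller part there.

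The light chain and isotype that held most reads also varied between libraries. Lambda constant genes made up 83.6%, 75.6%, 28.6%, 2.71%, 18.2% and 2.87% of light chain constant reads in MMSET-Ikk2ca 1 to 6, against 3.94%, 6.95%, 4.10% and 5.82% in Control(M). So 4 MMSET-Ikk2ca libraries exceeded all controls and 2 lay below them. Ighm was the most used heavy chain constant gene in every control and in 4 of the 6 MMSET-Ikk2ca libraries, while Ighg2b led in MMSET-Ikk2ca 2 with 47.1% and in MMSET-Ikk2ca 6 with 72.5%. The share of the leading isotype averaged 69.5% ± 13.8 in MMSET-Ikk2ca and 69.9% ± 8.19 in Control(M), without a detectable difference (exact permutation p = 0.933). Near-identical V genes may share reads, so the gene names are those to which salmon assigned the reads.

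**Figure D5:**
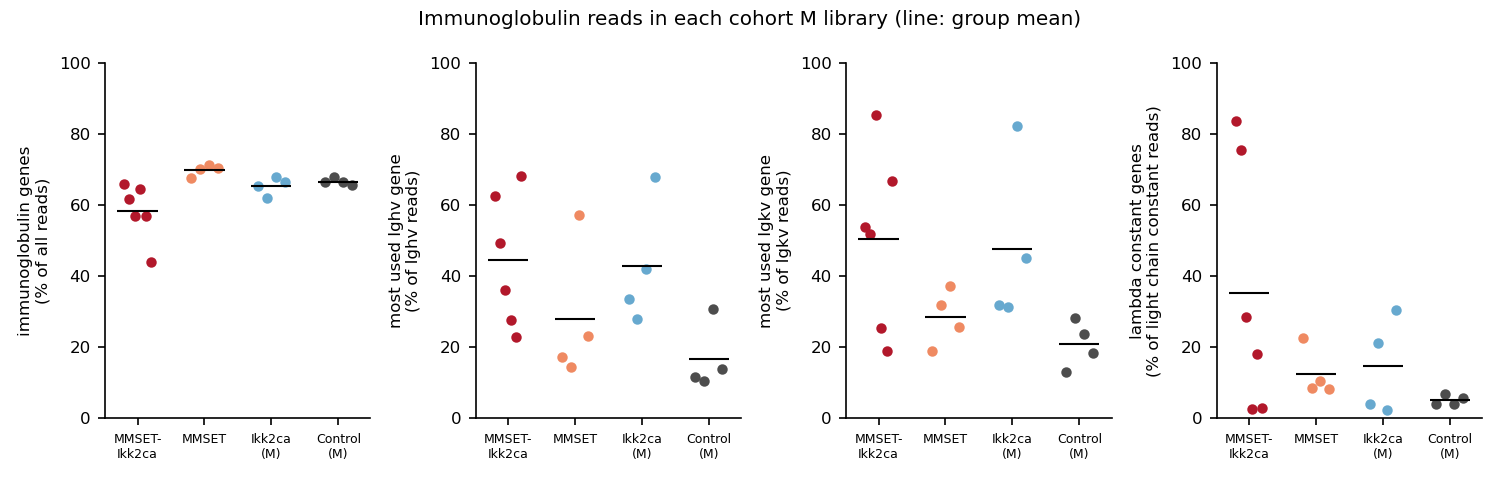
Immunoglobulin reads in each library of the cohort in percent, with a line at the group mean: all immunoglobulin genes, the most used heavy chain V gene, the most used kappa V gene, and lambda among light chain constant reads. The MMSET-Ikk2ca libraries spread from 43.9% to 65.9% in the first panel and from 2.71% to 83.6% in the last, while the 4 controls lie close together in both.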

How the data were processed

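RNA of sorted plasma cells was measured in 36 libraries, of which 10 are compared here and 18 form their cohort. RNA was reverse transcribed from oligo-dT with template switching, PCR-amplified and tagged with Nextera XT, per the labels' protocols, which describe no molecular identifier, so PCR copies remain in the counts. Per the submitters' processing notes, bcl2fastq 2.20.0.422, Salmon 1.3.0 and DESeq2 1.32.0 were used on GRCm38. The authors deposited estimated counts (expected counts from Salmon, not whole numbers) for 140825 transcripts, and TPM, which Salmon scaled within each library, per the file headers. TPM served only as an alternative for immunoglobulin shares.

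Counts were summed to 54203 genes with GENCODE M21 (139960 transcripts matched; the 865 others held 0.0740% to 0.134% of reads in MMSET-Ikk2ca and 0.0712% to 0.0923% in Control(M)) and rounded. Strand was not used, so overlapping and antisense genes cannot be separated. The 18 libraries of the cohort were fitted together with edgeR 4.0.16 in R 4.3.3 (TMM, filterByExpr, robust quasi-likelihood test, two-sided); the SE was taken as the size of the log2 fold change over the root of its F statistic. The difference between cohorts used a fit of 36 libraries. CPM used TMM-scaled library sizes. Single values were tested by exact permutation with Python 3.11.15, numpy 2.4.6, pandas 2.3.3 and scipy 1.17.1, and plotted with matplotlib 3.10.9. The level of a chromosome is the median over its genes of log2(CPM + 0.1) relative to the reference mean, less the median over all genes. The genes averaged at least 10 CPM in the controls, or over both groups in the permutation test.

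Named genes are the targeted genes, the 12 largest rises and falls among calls whose average log2 CPM reached 3, up to 4 called members of each of 36 lists (688 names, 4 without a match), the defining markers, and the 6 largest differences between cohorts in each direction; V, D and J segments, unnamed models, Xist and genes of the Y were not named. This gave 133 genes, a few of which are not reported here; other members named beside a count were chosen after their values were seen. The comparison, the members and the lists were chosen with earlier results of these data known. Alternatives were DESeq2 1.42.0, limma 3.58.1 voom, other scalings, filters and sets of libraries, the replicate number as a block, and each library left out.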

Additional observations from a re-analysis of the deposited data

Results flagged for a closer look

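Within groups, 235 sets of values with a library of at least 1 CPM were checked on the log2(CPM + 0.1) scale for a single library far from the rest by Dixon's criterion, and 6 met it (2.55%, where chance gives about 5%). In Control(M), Bcl2a1d was high in library 3 (5.64 CPM, against 0.820 to 1.08 in the others), Ifi27 in library 2 (35.6, against 17.8 to 18.8) and C1qb in library 1 (5.33, against 2.80 to 3.02). Ebf1 was low in Control(M) 4 (4.20 CPM, against 10.4 to 12.1), as was Nupr1 (0.0654, against 1.23 to 1.58). In MMSET-Ikk2ca, the red cell gene Slc4a1 was at 0 CPM in library 4 and between 2.70 and 11.7 in the other 5.

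For 14 named genes the effect of the double transgene differed between the 2 cohorts by the test of the difference in edgeR, given here as log2 effect in MMSET-Ikk2ca minus log2 effect in Ccnd1-Ikk2ca. The targeted genes differed by 7.78 (Nsd2) and -9.86 (Ccnd1). The other genes with a lower effect in MMSET-Ikk2ca were Fmnl1 (-8.87), Ebf1 (-7.45), Nrp2 (-6.61), H2-Eb2 (-6.50), Cd79a (-4.69), the sorting receptor gene Sorcs2 (-4.01), Cdkn2c (-3.06) and the chromatin protein gene Hmga1 (-1.41). Those with a higher effect were Mpeg1 (4.12), Napsa (2.24), Irf7 (1.87) and Ticam1 (1.40). For Sorcs2 the adjusted p was 0.029 and for Hmga1 0.00728.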

How the results depend on the processing

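Of 116 named genes called, 72 stayed called and kept their direction under every alternative that gave them an adjusted p, and 44 lost the call under at least 1. DESeq2 kept 112 of the 116 and gave the others no adjusted p. Leaving out 1 library kept 87 to 114 named calls. The count of called genes against Control(M) was 2196 with DESeq2 (1212 higher and 984 lower), 1683 with limma voom and 639 with MMSET-Ikk2ca replicates 1 to 4, it ranged from 689 to 1223 on leaving out 1 library, and it was 694 with the replicate block and 822 to 1291 under the other settings. Of the called genes, 41.4% were higher in the fit of 36 libraries and 50.6% in the fit of the cohort. With DESeq2 the counts were 922 against MMSET, 807 against Ikk2ca(M) and 563 for the difference between cohorts, with limma voom 572 against Ikk2ca(M) and 138 for that difference, and with only the groups compared 60. Leaving out 1 library gave 124 to 362 against MMSET, 76 to 239 against Ikk2ca(M) and 14 to 41 for the difference.

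No pairing of the libraries by replicate number was detected (correlation of same-numbered libraries -0.0984 to 0.0829 over 4 pairs, 1 of 4 libraries closest to its own number). With 4 pairs this check is too small to show that there is none. With the number as a block there were, beside the 694 calls against Control(M), 111 against MMSET and 74 against Ikk2ca(M).

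The immunoglobulin share difference was -3.52 with TPM (exact permutation p = 0.276) and -4.34 both with replicates 1 to 4 (p = 0.0571) and with the replicate block (p = 0.125), and -9.80 to -5.39 on leaving out 1 library. The heavy chain V difference was 27.2 with replicates 1 to 4 and with the block, and 23 to 32.5 on leaving out 1 library. The kappa V difference was 33.9 with V genes summed to families (exact permutation p = 0.0143) and 22.5 to 35.8 on leaving out 1 library. The isotype difference turned positive with TPM (3.61), with replicates 1 to 4 and the block (1.66), and without MMSET-Ikk2ca 2 (4.05), MMSET-Ikk2ca 5 (1.85), Control(M) 3 (3.06) or Control(M) 4 (0.433), with a range of -2.97 to 4.05. The chromosome 5 difference was -0.57 with replicates 1 to 4, -0.56 with the replicate block and -0.65 to -0.50 on leaving out 1 library. Ccnd1, close to 0 CPM, changed sign with limma voom (0.93), the block (1.0), Xist as a covariate (0.27), without Control(M) 3 (1.97) and without MMSET-Ikk2ca 2 (0.01). The cause of these shifts was not tested. The chromosome 5 level and its alternatives, and the counts per list, were added after the data were seen.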

Other observations

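The genes in this paragraph were chosen after their values were seen. Gt(ROSA)26Sor, the transcript of a locus often used to insert transgenes (chromosome 6, 113067428 to 113077333, GRCm38), lay between 0.435 and 3.02 CPM in MMSET-Ikk2ca (median 1.5), against 22.4, 14.8, 12.9 and 24.9 CPM in Control(M) (log2 fold change -3.51, SE 0.391, adjusted p = 2.44e-05), without overlap. It averaged 1.64 ± 0.865 CPM in MMSET-Ikk2ca (n = 6), 13.1 ± 4.47 in MMSET, 7.94 ± 2.39 in Ikk2ca(M) and 18.8 ± 5.82 in Control(M). In the other cohort it was low in both groups, with medians of 1.09 CPM in Ccnd1-Ikk2ca and 0.228 in Control(D). The insertion sites of the transgenes and the reporter are not given in the sources used here.

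All 13 mitochondrially encoded proteins had negative log2 fold changes, from -1.06 to -0.39 with a median of -0.64, and 9 of them fell. mt-Nd2, a subunit of respiratory complex I, lay between 32.6 and 63.7 CPM in MMSET-Ikk2ca (median 45), against 85.9, 118, 94.8 and 90.9 CPM in Control(M) (log2 fold change -1.06, SE 0.192, adjusted p = 0.00212). The nuclear genes of oxidative phosphorylation had a median of 0.21. Of 9 tested Ly6 genes 6 rose and none fell, with Ly6a, the stem cell antigen Sca-1, between 2371 and 3745 CPM in MMSET-Ikk2ca (median 3244), against 1276, 1838, 1146 and 1048 CPM in Control(M) (log2 fold change 1.26, SE 0.204, adjusted p = 9.19e-04). Among 12 genes of the interferon-inducible Ifi200 family 3 rose, led by Ifi211, between 213 and 384 CPM in MMSET-Ikk2ca (median 333), against 45.3, 34.3, 49.3 and 42.4 CPM in Control(M) (log2 fold change 2.85, adjusted p = 5.52e-06), while the DNA sensor gene Aim2 did not pass the test (adjusted p = 0.891).

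Further genes outside the lists included Csn3, the milk protein kappa-casein, between 485 and 901 CPM in MMSET-Ikk2ca (median 575), against 41.7, 39.8, 19.3 and 14.4 CPM in Control(M) (log2 fold change 4.49, SE 0.47, adjusted p = 2.44e-05), a gene of chromosome 5 that was higher. Nucb2, a calcium-binding secretory protein, lay between 57.3 and 111 CPM in MMSET-Ikk2ca (median 75.9), against 5.66, 1.51, 4.98 and 4.71 CPM in Control(M) (log2 fold change 4.26, SE 0.379, adjusted p = 4.00e-06). Ets1, a lymphocyte transcription factor that restrains plasma cell differentiation, lay between 1.02 and 2.66 CPM in MMSET-Ikk2ca (median 1.68), against 36.7, 30.9, 37 and 28.5 CPM in Control(M) (log2 fold change -4.22, SE 0.39, adjusted p = 5.52e-06).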
